A study of Rattus norvegicus with 4 samples.

Results

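The genes described here encode the subunits of the proteasome of the rat, together with its activators, its inhibitor and the chaperones that assemble it, in the crista ampullaris, the sensory epithelium of the semicircular canals. They were chosen as the gene probes whose current rat symbol starts with Psm, a letter from a to g and a digit. The symbol rule matched 45 genes on 57 probes. Psmc3ip and Psme3ip1 matched by symbol only and encode no part of the proteasome, which left 43 proteasome genes on 55 probes, of 12330 named genes and 33849 gene probes on the array.

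Single-colour whole-genome oligonucleotide arrays were hybridised with RNA from 2 samples of the supporting cell layer (supporting layer) and 2 samples of the hair cell layer (hair layer), captured by laser from rats of unstated strain, age and treatment. The supporting layer was the second pass of the capture and held the cell bodies on the basal lamina. The hair layer was the first pass and held both types of hair cell, the calyceal nerve endings around them and the supporting cell cytoplasm lying between them, so neither layer is a pure cell type. Whether the 2 samples of each layer are separate animals, captures or amplifications is not stated. P-values therefore describe array-to-array spread alone, which may be technical.

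The proteasome is the main protease of the cytosol and nucleus. Its barrel-shaped 20S core is built from outer alpha rings and inner beta rings, and only the beta subunits Psmb5, Psmb6 and Psmb7 cut proteins. The 19S particle caps the core, recognises ubiquitinated proteins and unfolds them with a ring of ATPases. In cells exposed to interferon-gamma, and constitutively in many immune cells, newly made cores can carry the immunosubunits Psmb8, Psmb9 and Psmb10 in place of Psmb5, Psmb6 and Psmb7, which changes the peptides that are cut and shown on MHC class I.

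Spots above background made up 39.8% and 39.7% of the gene probes in the supporting layer, against 48.8% and 45.6% in the hair layer, and the median raw intensity was 12.1 and 12, against 26.5 and 17.0. The number of arrays limits the precision. Replicates correlated with r = 0.994 across probes in the supporting layer and 0.993 in the hair layer. Levels are given below as normalized intensity, the raw spot intensity after quantile normalization over the 4 arrays, in arbitrary scanner units. A change is the difference of the mean log2 normalized intensity, supporting minus hair layer, with its standard error (SE), over 2 arrays a layer unless stated. A gene passed the test at a Benjamini-Hochberg adjusted p under 0.05 over all tested probes, in limma.

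The labelled cell types were checked against markers. Of 8 hair cell markers, 0 were higher in the supporting layer and 7 in the hair layer, or 87.5%, against 37.2% of all tested genes. Their summed normalized intensity was 797 and 803 in the supporting layer, against 5329 and 5490 in the hair layer. Cdh23, Espn and Myo7a were not well above background in the supporting layer. These genes entered the test through the hair layer, so their direction adds no support to the share. Of 8 markers of supporting cells, 7 passed as higher in the supporting layer, or 87.5%, against 28.2% of all tested genes, and 0 in the hair layer. Their sums were 9227 and 9103 in the supporting layer, against 7475 and 6556 in the hair layer. Most of these sums was Gjb6, which did not pass, with 5739 and 5729 in the supporting layer, against 6122 and 5230 in the hair layer. Most of the gap was Vim, with 2630 and 2497, against 1018 and 972. All 8 supporting cell markers were also detected on at least 1 array of the hair layer.

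Of the 43 proteasome genes, 38 had a probe detected on at least 2 of the 4 arrays and were tested. Psmc3, Psmc5, Psmd8, Psme3 and Psmg4 were measured but detected on fewer than 2 arrays. Psma3 is represented only by probes that match several genes, and no probe was named for Psma8, Psmb5, Psmb6 or Psmb11. The array therefore gives no value for 2 of the 3 constitutive catalytic subunits. For 14 of the tested genes the RefSeq annotation also holds pseudogenes named after them, with 7 pseudogenes for Psmb3 and 5 for Psma6, and whether their probes separate gene from pseudogene was not tested.

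Across the 38 tested genes the proteasome did not move together between the layers, but few changes were large. Those beyond 1 either way were Psmb9, Psmb1, Psma4, Psmd12, Psmg2 and Psmg3, while 36.9% of all tested genes changed as much. Of the 38, 20 passed the test, or 52.6%, against 65.4% of all 7771 tested named genes and 67.4% of all tested probes. In the supporting layer 7 were higher, or 18.4%, against 28.2% of all genes, and in the hair layer 13 were higher, or 34.2%, against 37.2% of all genes. Among the 13, Psmg2 and Psmg3 were detected in the hair layer only and entered the test through it. The median change was -0.16, and -0.10 with the genes not above background in a layer held at their bound, against -0.10 over all tested genes, and single genes ran from 2.16 for Psmb9 down to -1.83 for Psmd12 among those detected in both layers. Without supporting layer replicate 1 the count passing was 13, without hair layer replicate 1 it was 8, and without hair layer replicate 2 it was 7. The 7 genes higher in the supporting layer became 4 with 1 supporting layer array left out, whichever it was, and 2 with 1 hair layer array left out, and the 13 higher in the hair layer became 6 without hair layer replicate 1 and 5 without hair layer replicate 2. Of the 20 genes, 7 (Psmb9, Psmb1, Psmb7, Psma4, Psma6, Psmd12 and Psmg1) passed whichever array was left out, and Psmb9, Psmb1 and Psmd12 passed in every alternative in which they were tested. With median scaling 8 of the 20 passed (Psmb9, Psmb1, Psma4, Psmd10, Psmd12, Psmg1, Psmg2 and Psmg3), and with the scanner's own values 5 (Psmb9, Psmb1, Psmd12, Psmg2 and Psmg3).

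**Figure D1:**
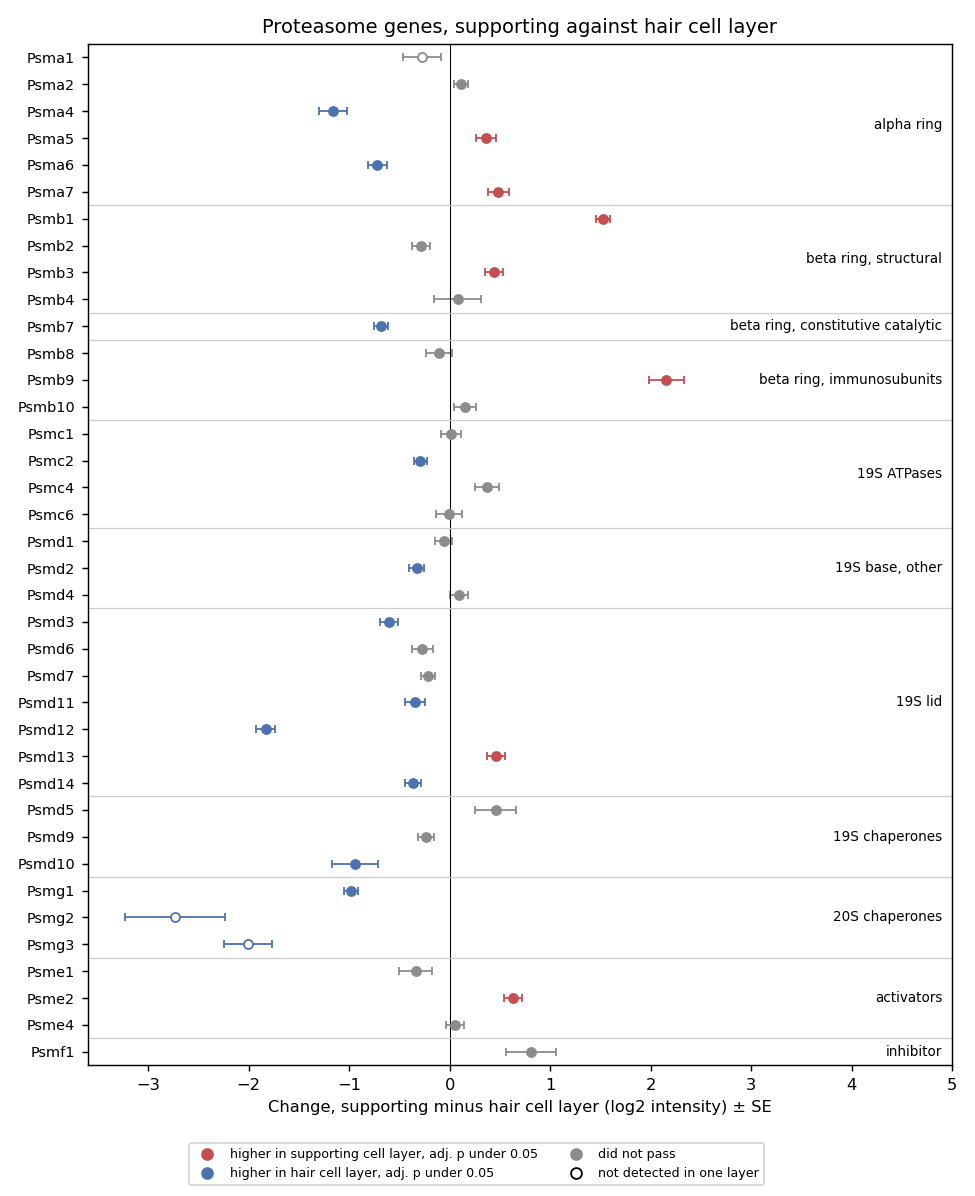
Change in log2 normalized intensity, supporting minus hair layer, with its SE, for the 38 tested proteasome genes grouped by role (vertical axis). Red points are higher in the supporting layer and blue points higher in the hair layer at an adjusted p under 0.05, grey points did not pass, and open points were not well above background in 1 layer, where the plotted change is no measure of size. Psmb9 and Psmb1 stand furthest right, and Psmd12 furthest left among filled points.

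The 3 immunosubunits are contrasted here with the constitutive core, and their promoter sequences are shown with that of Psmb7, the only constitutive catalytic subunit with a value. Each line gives the 250 bases before the annotated start of the gene, 5′ to 3′ on the gene's own strand, from RefSeq on the GRCr8 build. Capitals mark matches on either strand to the core of the interferon-stimulated response element (ISRE, GAAA followed by any NN and GAAA), to TTCNNNGAA, the gamma-activated sequence (GAS) bound by STAT factors, to TGACNNNGC, the core of the antioxidant response element, or to CCAAT. A match is a description of the letters and not a measured site.
Psmb9, chr20:4668750-4668999, plus strand: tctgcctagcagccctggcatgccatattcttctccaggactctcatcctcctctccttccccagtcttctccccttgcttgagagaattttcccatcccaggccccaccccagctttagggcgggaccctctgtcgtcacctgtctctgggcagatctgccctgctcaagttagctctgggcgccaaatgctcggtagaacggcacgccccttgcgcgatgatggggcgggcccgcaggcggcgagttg
Psmb8, chr20:4657032-4657281, minus strand: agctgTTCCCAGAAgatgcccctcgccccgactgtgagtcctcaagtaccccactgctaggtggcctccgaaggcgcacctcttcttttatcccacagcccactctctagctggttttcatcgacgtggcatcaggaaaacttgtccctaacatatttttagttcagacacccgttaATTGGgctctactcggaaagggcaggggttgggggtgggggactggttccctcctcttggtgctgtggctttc
Psmb10, chr19:50743293-50743542, minus strand: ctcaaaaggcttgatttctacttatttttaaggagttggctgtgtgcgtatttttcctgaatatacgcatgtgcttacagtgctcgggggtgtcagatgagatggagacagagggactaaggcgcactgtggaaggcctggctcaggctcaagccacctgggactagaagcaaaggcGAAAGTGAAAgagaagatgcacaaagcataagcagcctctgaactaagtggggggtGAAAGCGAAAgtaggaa
Psmb7, chr3:42827471-42827720, minus strand: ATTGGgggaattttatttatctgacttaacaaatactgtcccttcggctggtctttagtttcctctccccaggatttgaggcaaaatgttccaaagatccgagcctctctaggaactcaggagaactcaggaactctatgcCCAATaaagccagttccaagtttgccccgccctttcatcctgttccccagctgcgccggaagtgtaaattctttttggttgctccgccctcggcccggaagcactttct
In these windows Psmb10 held 2 ISRE cores, which start 73 and 17 bases before the gene, and Psmb8 held 1 GAS match and 1 CCAAT box. Psmb7 held 2 CCAAT boxes, and none of the 4 patterns was found in the Psmb9 window. That window covers 250 of the 456 bases between the starts of Psmb9 and its divergent neighbour Tap1, and no matches are given for the rest. Over all 33469 RefSeq promoter windows of the same length, 3.41% held the ISRE core, 7.67% the GAS pattern, 10.1% the antioxidant core and 34% a CCAAT box. Of the 43 windows that matched a proteasome gene by symbol, 5 held the ISRE core (Psma4, Psmb3, Psmb10, Psmd7 and Psme2), 4 the GAS pattern, 7 the antioxidant core and 20 a CCAAT box. No pattern overlapped another in the 4 printed windows.

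Psmb9, which replaces Psmb6 in the immunoproteasome, was the proteasome gene most strongly weighted to the supporting layer. Its normalized intensity was 156 and 157 in the supporting layer, against 30.4 and 40.6 in the hair layer. Both supporting layer arrays were above both hair layer arrays, and the probe was above background on all 4. The change was 2.16 ± 0.18, or 4.46-fold higher in the supporting layer (adjusted p = 0.00338). With each array left out in turn the change stayed between 1.98 and 2.36 and passed the test each time.

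Psmb8, which replaces Psmb5, had a normalized intensity of 154 on supporting layer replicate 1, against 158 and 175 in the hair layer. The spot of supporting layer replicate 2 was marked as contaminated by the scanner software and was left out, so the supporting layer rests on 1 array assumed to vary like the others. The change of -0.11 ± 0.13 did not pass (adjusted p = 0.508), and its sign turned to 0.02 with median scaling and 0.06 with the scanner's own values. With the contaminated spot kept it was -0.13.

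Psmb10, which replaces Psmb7, had normalized intensities of 73.7 and 71.4 in the supporting layer, against 60.9 and 69.9 in the hair layer. The values did not overlap, but the gap between the nearest arrays was smaller than the spread within the hair layer. The change of 0.15 ± 0.10 did not pass (adjusted p = 0.267).

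Psmb7, the constitutive subunit with trypsin-like activity, had normalized intensities of 181 and 191 in the supporting layer, against 296 and 301 in the hair layer. Both supporting layer arrays lay below both hair layer arrays. The change was -0.68 ± 0.07, or 1.61-fold higher in the hair layer (adjusted p = 0.00577). The adjusted p was 0.132 with median scaling, 0.353 with the scanner's own values and 0.062 with no filter on dim probes. Psmb10 and Psmb7, which take the same place in the beta ring, are the only exchanged pair with probes for both, and their changes differed by 0.84 on the log2 scale, or 1.78-fold, a difference that was not tested. Their levels come from different probes and cannot be set against each other.

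**Figure D2:**
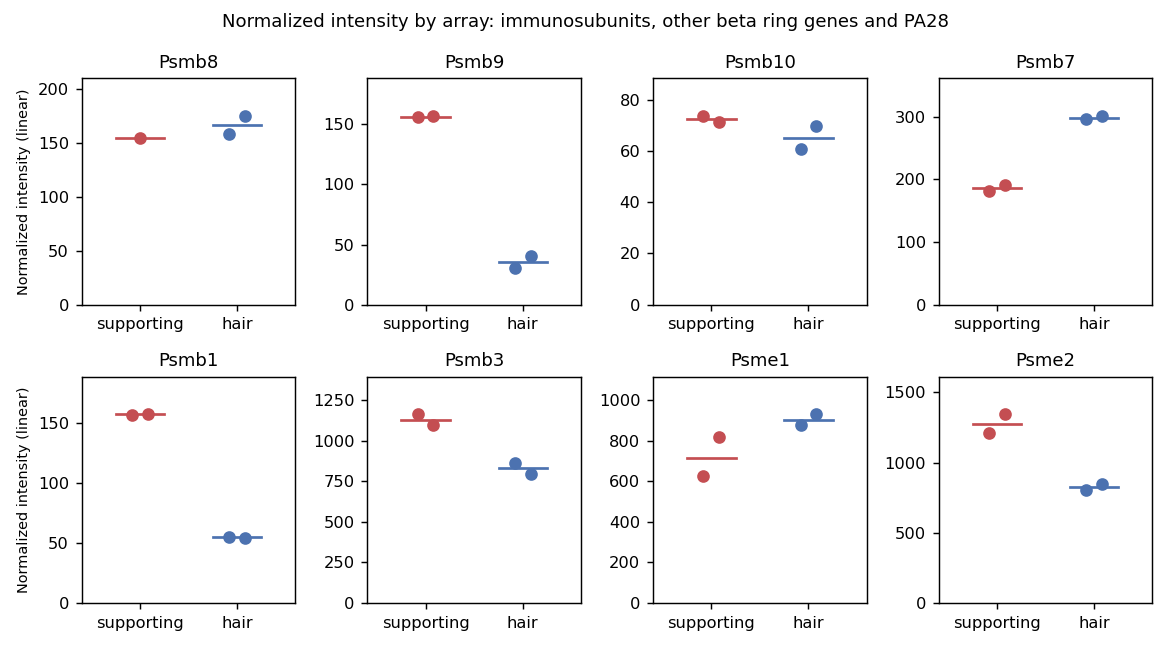
Normalized intensity (linear, arbitrary units, vertical axis from 0) on each array, for the 3 immunosubunits, 3 other beta ring genes and the PA28 activator genes Psme1 and Psme2. Points are arrays (red, supporting layer; blue, hair layer), bars are geometric means, and Psmb8 has 1 usable supporting layer array. The supporting layer is higher for Psmb9 and Psmb1, with 4.46-fold and 2.88-fold differences, and the layers lie close for Psmb8 and Psmb10.

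Before any normalization, the raw intensities also set Psmb9 and Psmb1 apart. The arrays of the supporting layer were dimmer as a whole: 73.7% of all tested genes had both supporting layer arrays below both hair layer arrays, and 15.2% had both above. Of the 38 proteasome genes, 34 were below, 2 were above (Psmb9 and Psmb1) and 2 overlapped (Psme2 and Psmf1). Psmb9 had raw intensities of 123 and 118 in the supporting layer, against 43.0 and 44.9 in the hair layer. Psmb8 had 121 and 113, the second being the contaminated spot, against 207 and 201. Psmb10 had 57.6 and 54.8, against 81.3 and 77.6. Psmb7 had 143 and 144, against 392 and 348. Of the 3 immunosubunits, Psmb9 was thus brighter in the supporting layer even unscaled, while Psmb8 and Psmb10 were dimmer there, as most genes were.

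**Figure D3:**
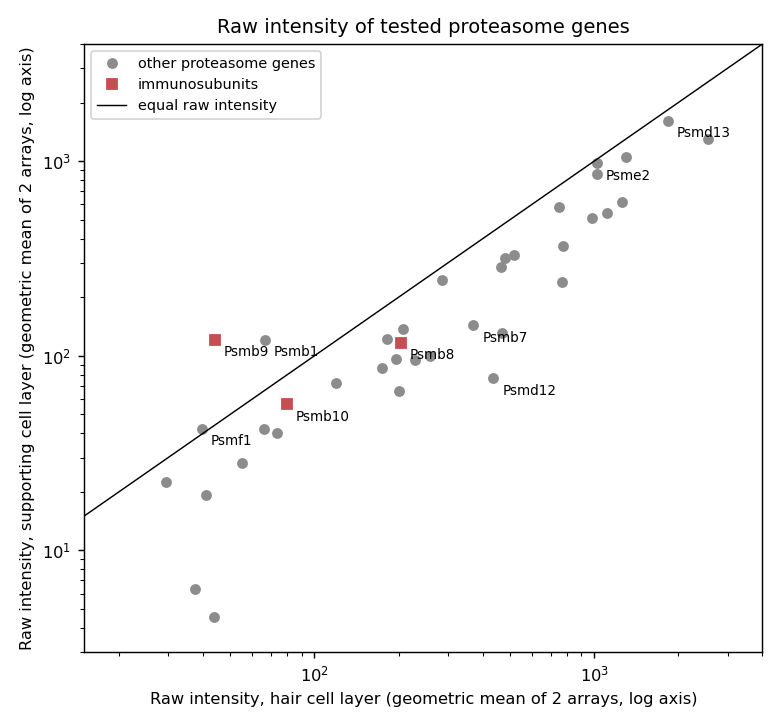
Raw intensity of the 38 tested proteasome genes, geometric mean of 2 arrays, with the supporting layer on the vertical and the hair layer on the horizontal log axis. Red squares are the 3 immunosubunits, the contaminated Psmb8 spot included, grey points are the other genes, and the line marks equal intensity. Psmb9 and Psmb1 lie clearly above the line and 34 genes have both supporting layer arrays below both hair layer arrays.

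Among the 11 constitutive subunits of the 20S core that were tested, 7 passed, or 63.6%, close to the 65.4% of all genes. Of these 7, 4 were higher in the supporting layer, or 36.4% of the 11, against 28.2% of all genes, and 3 were higher in the hair layer, or 27.3%, against 37.2%. Their median change was 0.08, against 0.15 for the 3 immunosubunits and -0.10 for all genes. The median of the constitutive subunits was -0.13 without hair layer replicate 2 and -0.11 without supporting layer replicate 2, and that of the immunosubunits was 1.14 without supporting layer replicate 1, where Psmb8 has no value. A median of 3 genes hides the spread between Psmb9 and the other two.

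Psmb1, a structural subunit of the beta ring, had normalized intensities of 157 and 157 in the supporting layer, against 54.7 and 54.4 in the hair layer. The arrays of a layer were nearly equal and the layers were far apart. The change was 1.53 ± 0.07, or 2.88-fold higher in the supporting layer (adjusted p = 0.0015). Its raw intensity was 124 and 118, against 73.0 and 60.2. Psmb3, another structural subunit, had 1161 and 1094 in the supporting layer, against 864 and 795 in the hair layer. Its change was 0.44 ± 0.09 (adjusted p = 0.0222), and its second probe gave 0.84 ± 0.09. The Psmb3 call was lost without each of the 4 arrays in turn, with adjusted p between 0.0522 and 0.0885. Psmb2 at -0.28 ± 0.09 and Psmb4 at 0.08 ± 0.23 did not pass. The structural beta subunits share a ring in equal number, and the changes of their mRNA ran from 1.53 to -0.28.

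The alpha subunits form the outer rings that gate entry to the core. Of the 6 tested, 2 were higher in the supporting layer, 2 in the hair layer and 2 did not pass, so that 66.7% passed, close to the 65.4% of all genes. Psma4 had 169 and 171 in the supporting layer, against 423 and 340 in the hair layer. The layers did not overlap, and the change was -1.16 ± 0.14, or 2.23-fold higher in the hair layer (adjusted p = 0.0073). Psma6 had 132 and 123, against 218 and 202, a change of -0.72 ± 0.09 (adjusted p = 0.00803). Both passed whichever array was left out, though Psma6 did not pass with median scaling (adjusted p = 0.119).
Psma7 had 307 and 340 in the supporting layer, against 220 and 243 in the hair layer, a change of 0.49 ± 0.11 (adjusted p = 0.027). Psma5 had 747 and 797, against 636 and 568, a change of 0.36 ± 0.10 (adjusted p = 0.0466). These changes are small, and the Psma5 call was lost without each of the 4 arrays in turn, with adjusted p between 0.0824 and 0.148. The Psma7 call was lost when either hair layer array was left out and without supporting layer replicate 2, with adjusted p up to 0.111. Psma2 at 0.11 ± 0.07 did not pass, and Psma1 was not well above background in the supporting layer, with 23.2 and 31.5, against 33.3 and 32.0 in the hair layer, and did not pass.

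Of the 14 tested subunits of the 19S particle, 1 was higher in the supporting layer, 6 were higher in the hair layer and 7 did not pass, with a median change of -0.24 against -0.10 for all genes. The 6 are 42.9% of the 14, close to the 37.2% of all genes that were higher in the hair layer. Of the 14, 50% passed, against 65.4% of all genes, and 7.14% were higher in the supporting layer, against 28.2%. Within the 19S particle the lid holds the deubiquitinase and scaffold subunits. It had 1 of 7 higher in the supporting layer, or 14.3%, against 28.2%, and 4 in the hair layer, or 57.1%, against 37.2%. Psmd12, a scaffold subunit of the lid, had the largest change to the hair layer among proteasome genes detected in both layers. Its normalized intensity was 104 and 94.6 in the supporting layer, against 364 and 343 in the hair layer. No array of a layer came near the other layer, and the change was -1.83 ± 0.09, or 3.55-fold higher in the hair layer (adjusted p = 0.00171). The change was between -1.90 and -1.77 with each array left out in turn.

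Psmd3, a lid scaffold subunit, had 126 and 119 in the supporting layer, against 179 and 195 in the hair layer, a change of -0.61 ± 0.09 (adjusted p = 0.0113, and 0.0577 without hair layer replicate 2). Psmd14, the deubiquitinase of the lid that removes ubiquitin chains from the bound protein, had 488 and 477, against 641 and 598, a change of -0.36 ± 0.08 (adjusted p = 0.0277). Psmd11 changed by -0.35 ± 0.10 (adjusted p = 0.0473), and its second probe, on which supporting layer replicate 1 was irregular and left out, gave -0.41 ± 0.11. The calls of Psmd14 and Psmd11 were lost without each of the 4 arrays in turn, with adjusted p up to 0.105 for Psmd14 and 0.172 for Psmd11. Psmd13 went the other way, with 2119 and 1967 in the supporting layer, against 1429 and 1540 in the hair layer, a change of 0.46 ± 0.09 (adjusted p = 0.0209). Its call was lost when either hair layer array was left out and without supporting layer replicate 1, with adjusted p up to 0.0918. Psmd6 at -0.27 ± 0.11, fitted without the irregular spot of supporting layer replicate 1, and Psmd7 at -0.21 ± 0.07 did not pass. Subunits of 1 complex therefore stood on both sides of 0, as in the core.

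In the base of the 19S particle 0 of the 7 tested genes were higher in the supporting layer, against 28.2% of all genes. In the hair layer 2 of the 7 were higher. They made up 25% of the tested ATPases and 33.3% of the other tested base subunits, against 37.2% of all genes. Of the base ATPases, which unfold the substrate, 4 were tested. Psmc2 had 1721 and 1738 in the supporting layer, against 2125 and 2106 in the hair layer, a change of -0.29 ± 0.07 (adjusted p = 0.0318), and its call was lost without each of the 4 arrays in turn, with adjusted p up to 0.108. Psmc4 at 0.37 ± 0.12, Psmc1 at 0.01 ± 0.10 and Psmc6 at -0.01 ± 0.13 did not pass. Of the other base subunits Psmd2, a docking platform for ubiquitin-like domains, had 812 and 825, against 1003 and 1051, a change of -0.33 ± 0.07 (adjusted p = 0.0284). The Psmd2 call was lost without each of the 4 arrays in turn, with adjusted p up to 0.108. Psmd1 at -0.06 ± 0.08 and the ubiquitin receptor Psmd4 at 0.10 ± 0.09 did not pass.

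Activators can cap the core in place of the 19S particle. Psme1 and Psme2 encode the alpha and beta subunits of PA28, an interferon-gamma-inducible ring that assists the cutting of peptides for MHC class I. Psme2 had normalized intensities of 1212 and 1343 in the supporting layer, against 804 and 845 in the hair layer. Psme1 had 627 and 816 in the supporting layer, against 879 and 929 in the hair layer. The partners of the same ring thus lay in opposite order in the layers. Psme2 changed by 0.63 ± 0.09, or 1.55-fold higher in the supporting layer (adjusted p = 0.0112), and Psme1, at -0.34 ± 0.17, did not pass (adjusted p = 0.155). The Psme2 call was lost without hair layer replicate 1 (adjusted p = 0.0675) and without hair layer replicate 2 (adjusted p = 0.056), with median scaling (adjusted p = 0.0704) and with the scanner's own values (adjusted p = 0.193). Psme4, the nuclear activator PA200, had 411 and 457, against 418 and 417, and overlapped between the layers (change 0.05 ± 0.09). Psme3 was not detected on enough arrays to be tested. Psmf1, a regulator that inhibits the core in vitro, had 47.4 and 62.1, against 26.2 and 36.7, and at 0.81 ± 0.25 did not pass (adjusted p = 0.0604). It passed under 5 alternatives, median scaling among them (adjusted p = 0.0339).

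Assembly chaperones bring the subunits together and leave the finished particle. Of the 6 tested with a symbol in the rule, 4 passed, or 66.7%, close to the 65.4% of all genes. None of the 6 was higher in the supporting layer, against 28.2% of all genes, and 4 were higher in the hair layer, or 66.7%, against 37.2%. Of these 4, Psmg2 and Psmg3 were detected on the hair layer arrays only. They entered the test through that layer, so their direction adds no support to the share. Psmg1, which pairs with Psmg2 to order the alpha ring, had 314 and 316 in the supporting layer, against 621 and 621 in the hair layer. The replicates were nearly equal and the layers did not overlap, with a change of -0.98 ± 0.07, or 1.97-fold higher in the hair layer (adjusted p = 0.00256). Psmg2 had 8.20 and 3.40 in the supporting layer, not well above background, against 34.6 and 35.6 in the hair layer, which gives at least 1.28-fold higher in the hair layer (adjusted p = 0.0181). Psmg3, a further chaperone of the alpha ring, had 8.99 and 5.95 in the supporting layer, not well above background, against 29.1 and 29.6 in the hair layer, which gives at least 1.07-fold higher in the hair layer (adjusted p = 0.00723). A bound here is the hair layer mean against the lowest signal counted as detected in the supporting layer. Some brighter spots were still not detected, such as Psma1 at 31.5 on supporting layer replicate 2, above the hair layer values of Psmg3. The folds given as at least a value are therefore not strict limits, here and below. Over the alternatives the changes of Psmg2 and Psmg3 came as near to 0 as -0.31 and -0.055, and the adjusted p of Psmg3 rose to 0.23. The calls of Psmg2 and Psmg3 were lost when either hair layer array was left out, with adjusted p up to 0.103 and 0.0576.

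Psmd10, the 19S chaperone gankyrin, had 104 and 70.3 in the supporting layer, against 166 and 162 in the hair layer, a change of -0.94 ± 0.23 (adjusted p = 0.0356). Its call was lost when either hair layer array was left out, with adjusted p up to 0.151. All 4 Psmd10 probes were tested and their changes were below 0. Some of them were detected in the hair layer only and entered the test through it, so their direction adds no support. Another probe, detected on supporting layer replicate 1 but not replicate 2, was at -0.70 ± 1.15 and did not pass (adjusted p = 0.617). Psmd5 at 0.46 ± 0.20 and Psmd9 at -0.23 ± 0.08 did not pass. Both are chaperones of the 19S base, and their values lay on either side of 0.

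Genes that work with the proteasome were counted from a list of 30 partners, of which 21 were tested. Of these, 4 were higher in the supporting layer, 10 in the hair layer and 7 did not pass, with a median change of -0.52, against -0.10 for all genes. The counts take the brightest probe of each gene, and tested probes of some genes disagreed. Nploc4 was -0.80 and Ubqln1 -0.61 at the brightest probe, but 2.26 and 0.43 at another that also passed. Nfe2l1 at 0.11 did not pass, while another of its probes passed at -1.04. A further Nfe2l1 probe was not well above background in the hair layer and entered the test through the supporting layer. It passed as at least 3.67-fold higher in the supporting layer. The tested probes of Ecpas, Ubqln4 and Rad23b had the same sign, but only the brightest of each was detected in the supporting layer. Their other tested probes entered through the hair layer, so the shared sign adds no support. Rad23b passed at neither probe. The share that passed was 66.7%, close to the 65.4% of all genes, with 19% higher in the supporting layer, against 28.2%, and 47.6% higher in the hair layer, against 37.2%. Pomp, the chaperone that completes the core, had 44.2 and 40.8 in the supporting layer, against 18.5 and 23.6 in the hair layer, a change of 1.02 ± 0.16 (adjusted p = 0.0125). Pomp thus lay opposite to the chaperones of the alpha ring. It passed whichever array was left out, with adjusted p up to 0.0483.
Sem1, a small subunit of the 19S lid with a symbol outside the rule, had 55.9 and 51.7 in the supporting layer, against 129 on hair layer replicate 1, since the irregular spot of hair layer replicate 2 was left out. Its change was -1.26 ± 0.12 (adjusted p = 0.0118), with the spread of the single hair layer array taken to be like that of the others. The Sem1 call held in 9 of 12 alternatives, with adjusted p up to 0.209. The ubiquitin ligase Ube3c, which binds the proteasome, was not well above background in the supporting layer, against 166 and 162 in the hair layer, which makes it at least 5.97-fold higher in the hair layer (adjusted p = 0.00115). Zfand5, which stimulates the proteasome, had 247 and 285 in the supporting layer, against 526 and 552 in the hair layer, and changed by -1.02 ± 0.11 (adjusted p = 0.00565, and 0.0982 with the scanner's own values).

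The immunosubunits were set beside a list of 28 genes of MHC class I antigen processing and the interferon-gamma response, of which 12 were tested. Of these, 5 were higher in the supporting layer, or 41.7%, against 28.2% of all genes, and 4 in the hair layer, or 33.3%, against 37.2%, while 3 did not pass. Psmb9 and Tap1, which encodes a chain of the transporter that carries peptides into the endoplasmic reticulum, are divergent neighbours on chromosome 20, with 456 bases between their start sites in the GRCr8 annotation. The order along the chromosome is Tap2, Psmb8, Tap1 and Psmb9. Tap1 was picked as this neighbour and not by the rule for named genes. It had normalized intensities of 113 and 129 in the supporting layer, against 69.7 and 71.1 in the hair layer. Both supporting layer arrays were above both hair layer arrays, with a change of 0.77 ± 0.10 (adjusted p = 0.00873). The raw intensities of Tap1 overlapped between the layers, with 88.4 and 98.3 in the supporting layer, against 93.3 and 79.0 in the hair layer, and its other probe was detected on no array. That call was lost when either hair layer array was left out, with adjusted p up to 0.0585, with the scanner's own values (adjusted p = 0.0921) and with no filter on dim probes (adjusted p = 0.0629). Psmb8, on the other side of Tap1, did not pass, and Tap2 was not detected on enough arrays to be tested.

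Isg15, a ubiquitin-like protein induced by interferons, had 261 and 257 in the supporting layer and was not well above background in the hair layer, which gives at least 16.2-fold higher in the supporting layer (adjusted p = 0.00254). Irf9 and B2m passed on the same side and are named outside the rule for named genes, after their values were seen. Irf9, a DNA-binding factor of the interferon response, had 207 and 186 in the supporting layer, against 99.3 and 99.1 in the hair layer, a change of 0.98 ± 0.09 (adjusted p = 0.00409) that passed in 14 of 14 alternatives. B2m, the light chain of MHC class I, had 46.0 and 39.4, against 21.6 and 29.2, a change of 0.76 ± 0.20 (adjusted p = 0.0426) that passed in 6 of 14 alternatives, with adjusted p up to 0.15.
In the other direction the endoplasmic reticulum chaperone Calr had 218 and 235 in the supporting layer, against 608 and 557 in the hair layer, a change of -1.36 ± 0.09 (adjusted p = 0.00256). The interferon-gamma receptor chain Ifngr1 had 36.0 and 17.1 in the supporting layer, where replicate 2 was not above background, against 85.2 and 75.0 in the hair layer. Its change of -1.69 ± 0.43 (adjusted p = 0.0384) was lost when either hair layer array was left out, with adjusted p up to 0.172, and with no filter on dim probes (adjusted p = 0.108). Stat2, a partner of Irf9 in the response to type I interferons, had 145 and 138 in the supporting layer, against 347 on hair layer replicate 2, since the contaminated spot of hair layer replicate 1 was left out. Its change of -1.30 ± 0.11 (adjusted p = 0.00966) rests on that single hair layer array, and held in 10 of 12 alternatives, with adjusted p up to 0.0812. Pdia3, also named outside the rule, was the remaining gene of the list that passed as higher in the hair layer. It had 184 and 160 in the supporting layer, against 378 and 387 in the hair layer. Its change was -1.15 ± 0.10 (adjusted p = 0.00391), and its other probe, at -0.20 ± 0.09, did not pass. Irf1, Gbp2, Cxcl10 and Ciita, which interferon-gamma induces or works through, were detected on no array, which does not show that they were absent. Members of the list thus lay on both sides.

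**Figure D4:**
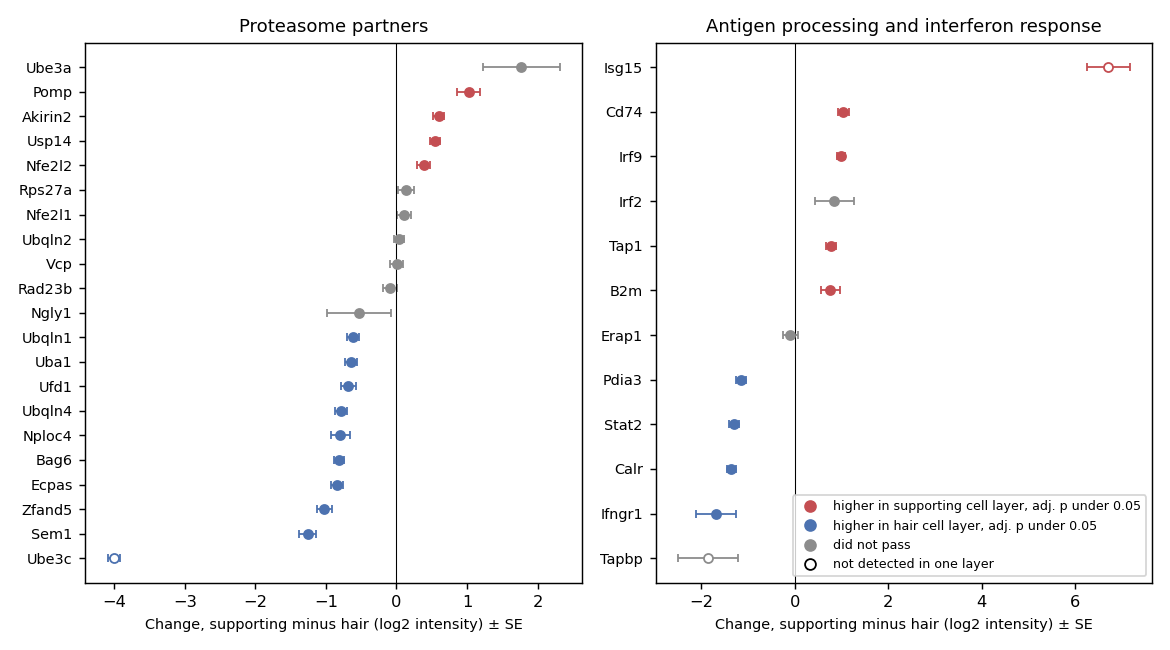
Change in log2 normalized intensity, supporting minus hair layer, with its SE, for the 21 tested proteasome partners (left) and the 12 tested genes of antigen processing and the interferon response (right). Red points are higher in the supporting layer and blue points in the hair layer at an adjusted p under 0.05, grey points did not pass, and open points were not well above background in 1 layer, where the plotted change is no measure of size. Both lists hold genes on each side of 0.

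Markers of vascular and immune cells, which the captured layers could also hold, were counted beside Psmb9 and Tap1. Of 9 tested vascular markers of 12, 8 were higher in the supporting layer, or 88.9%, against 28.2% of all genes. The other, Vwf, was higher in the hair layer, or 11.1%, against 37.2%. Summed over the 8 vascular markers with values on all arrays, the normalized intensity was 1517 and 1538 in the supporting layer, against 438 and 493 in the hair layer. Rgs5, Esam and Emcn were not well above background in the hair layer. They entered the test through the supporting layer, so their direction adds no support to the share. Cldn5, also among the 8 that were higher in the supporting layer, rests there on replicate 1, since the spot of replicate 2 failed. Of 7 tested immune markers of 12, Cd74 and Csf1r were higher in the supporting layer, Aif1 and Cd68 in the hair layer, and 3 did not pass. The share that passed was 57.1%, against 65.4% of all genes. A supporting layer spot of Csf1r and one of Cd68 were left out, and the calls of Csf1r, Aif1 and Cd68 were lost when either hair layer array was left out, with adjusted p up to 0.133. The immune markers' sum over 5 genes with all values was 219 and 217 in the supporting layer, against 393 and 406 in the hair layer. Most of that gap was Aif1, not well above background in the supporting layer, against 171 and 173 in the hair layer, and the other 4 summed to 206 and 217, against 222 and 234. The leukocyte marker Ptprc was detected on no array. The 19S subunit genes Psmc3 and Psmc5 were detected on no array either, so a missing signal does not show absence. The part of these cells in the Psmb9 and Tap1 values was not tested, and fewer cells of a type and less RNA per cell cannot be told apart.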

How the data were processed

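RNA of laser-captured layers was amplified linearly and hybridised to single-colour arrays, per the labels' protocols. Per the file headers, spots were read by CodeLink Expression Analysis 4.0.0.23520. The deposited raw intensity of each spot is background-corrected, and some values are below 0. The deposited normalized intensity is that value over the array's median, and spots carry a quality flag. The series table was not used, because its column for supporting layer replicate 2 is shifted: only 3 of 35125 rows were equal as aligned.

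Raw intensities were quantile-normalized, raised to a floor of 0.1 of the median and taken to log2 in R 4.3.3. Contaminated, irregular or failed spots were left out and saturated ones kept. Probes detected on at least 2 arrays (16483) were tested with limma 3.58.1 (lmFit, eBayes, no block, two-sided, Benjamini-Hochberg over all tested probes). A gene with several probes took its brightest. Names came from the platform annotation, updated through the GRCr8 RefSeq annotation: 16922 probes had 1 named gene and 165 matched several.

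Values on every array are given for immunosubunits, their partners and activators, and in other groups of proteasome genes for called genes with the largest changes, up to 3 a direction. Other lists name up to 4 called genes, largest changes first. The members and lists were chosen with earlier results of these data known. The alternatives were median scaling, the scanner's values, other floors and filters, saturated spots left out, an intensity trend, a replicate block, each array left out, the mean over a gene's probes and, chosen after seeing the data, contaminated and irregular spots kept.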

Additional observations from a re-analysis of the deposited data

How the results depend on the processing

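None of the 20 proteasome genes that passed changed direction under any alternative. The 20 became 9 with median scaling, 5 with the scanner's own values, 6 with no filter on dim probes and 7 to 15 with 1 array left out. The 7 higher in the supporting layer became 3, 2, 2 and 2 to 4 in the same order, and the 13 higher in the hair layer became 6, 3, 4 and 5 to 11. Over all probes the 11112 calls became 6871 with the scanner's values, 6654 with no filter and 7229 to 10009 with 1 array left out. Titles share replicate numbers, but same-numbered deviations correlated with r = -0.0022 over 15984 probes. With the replicate number as a block 13 proteasome genes passed, 8 of them higher in the hair layer.

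With the scanner's values the median change was 0.22 for constitutive core subunits, 0.31 for immunosubunits and -0.13 for 19S subunits, and the immunosubunits' median was 1.15 over probes detected on all arrays, where Psmb8 drops out. With 1 array left out these medians ran from -0.13 to 0.12, 0.053 to 1.14 and -0.25 to -0.19. Against 0.01 with quantile normalization, the median of all probes was 0.10 with median scaling and 0.14 with the scanner's values.

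Signs turned for genes that had not passed. With median scaling and with the scanner's values, Psmb8 was 0.022 and 0.060, Psmc6 0.13 and 0.16 and Psmd1 0.054 and 0.088. With contaminated and irregular spots kept, Psmc6 was 0.022, and the immune marker Cd68, which had passed, was 0.11. With 1 array left out, values ran from -0.13 to 0.29 for Psmb4, -0.072 to 0.091 for Psmc1, -0.12 to 0.11 for Psmc6 and -0.023 to 0.13 for Psme4. The causes were not tested.

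Background correction with normexp was not run, since the files give no separate spot mean and background, and no slide or scan block was run, since each array has a slide of its own. Signal near background limits Psmg2, Psmg3 and Psma1, and 2 arrays a layer limit every test.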
